A study of Mus musculus with 6 samples.

Results

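Collagens are the triple-helical proteins of the extracellular matrix, and each of their chains is encoded by a separate gene. The genes described here were chosen by symbol alone, as every probe set whose platform annotation gives a single gene symbol of the form Col, number, a, number. The rule itself uses no measured value. The rule found 82 probe sets of the 45037 compared, which belong to 42 genes of the 18193 named on the array. By class these were 8 fibrillar chain genes, 7 genes of cartilage collagens, 8 of basement membrane collagens and 19 others.

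RNA came from mouse otic vesicles, the epithelial sacs that become the inner ear, at embryonic day 11.5. The Mest-KO group held 3 arrays of T-Cre conditional Tbx1 knockouts, and the control group held 3 arrays of T-Cre conditional Tbx1 heterozygotes. Each array held the pooled ears of both sides of 3 embryos that shared a genotype, taken from periotic tissue that had been treated with dispase for 30 min at 37 °C to free the vesicle. The comparison asks how the vesicle differs when the transcription factor gene Tbx1 is lost from mesoderm. T-Cre is a recombinase driven by the promoter of T (brachyury), which is active in early mesoderm. The labels call both groups T-Cre conditional, so the recombinase was common to them, and the control was heterozygous for Tbx1, not wild type. The exact Tbx1 alleles and the strain are not given in the labels.

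Fibrillar collagens of types I, III and V are made mainly by mesenchymal cells and fibroblasts and form the cross-striated fibrils of connective tissue. Types II, IX and XI form the thin fibrils of cartilage and, in the ear, of the tectorial membrane, and the chains of type II are also made early by the otic epithelium. Type IV chains form the network of every basement membrane, the sheet on which an epithelium such as the otic vesicle rests, where collagens XV and XVIII are also found.

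The 250 bases before the start of 4 collagen genes are shown to let a reader compare 2 fibrillar chains with a wide spread over the arrays, Col1a2 and Col3a1, with 2 cartilage chains whose values did not overlap between the groups. The sequences are RefSeq's for build GRCm38.p6, on the plus strand, 5′ to 3′, with capitals for the CCAAT box, for the GC box (letters GGGCGG) and for the TATA box (letters TATAAA), each searched on both strands.
Col1a2, chr6:4505368-4505617: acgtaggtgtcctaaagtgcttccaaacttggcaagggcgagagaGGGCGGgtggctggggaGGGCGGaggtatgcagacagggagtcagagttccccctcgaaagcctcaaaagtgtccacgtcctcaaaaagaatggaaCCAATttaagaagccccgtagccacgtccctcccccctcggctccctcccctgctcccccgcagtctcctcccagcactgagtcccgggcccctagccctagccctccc
Col3a1, chr1:45311288-45311537: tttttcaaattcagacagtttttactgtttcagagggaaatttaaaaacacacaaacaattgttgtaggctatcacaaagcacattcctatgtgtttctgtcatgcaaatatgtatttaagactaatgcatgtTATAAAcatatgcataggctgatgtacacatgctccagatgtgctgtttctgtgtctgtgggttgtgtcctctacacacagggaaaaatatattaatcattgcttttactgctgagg
Col9a2, chr4:121039316-121039565: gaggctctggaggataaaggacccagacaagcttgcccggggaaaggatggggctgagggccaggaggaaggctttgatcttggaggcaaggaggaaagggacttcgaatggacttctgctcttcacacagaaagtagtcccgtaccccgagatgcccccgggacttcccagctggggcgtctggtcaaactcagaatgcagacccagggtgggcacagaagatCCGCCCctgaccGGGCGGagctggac
Col11a1, chr3:114030290-114030539: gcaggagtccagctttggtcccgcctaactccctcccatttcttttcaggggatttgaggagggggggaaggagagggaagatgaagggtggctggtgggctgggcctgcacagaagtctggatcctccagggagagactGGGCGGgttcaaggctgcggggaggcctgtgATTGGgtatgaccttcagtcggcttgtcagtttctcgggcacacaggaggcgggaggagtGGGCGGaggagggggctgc

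The Col1a2 stretch held 2 GC boxes and a CCAAT box that ended 105 bases before the start, while that of Col3a1 held neither and had a TATA box that ended 112 bases before the start. Both cartilage stretches held 2 GC boxes, the nearer of which ended 9 bases before the start in Col9a2 and 14 bases before it in Col11a1. The annotated starts of Col4a1 and Col4a2, which are read in opposite directions, lie 21 bases apart, so placed that the transcripts overlap by 22 bases. Of their windows, that of Col4a2 held 2 GC boxes and that of Col4a1 none. RefSeq windows were found for 33 of the 42 collagen genes, 36 windows in all, and were set beside 32851 windows of the same length from all genes. A GC box stood in 58.3% of the collagen windows and 32.7% of all windows, a CCAAT box in 36.1% and 33.8%, and a TATA box in 13.9% and 12.4%. These matches describe letters only, and overlapping matches were counted.

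Values are deposited intensities per probe set, and the brightest probe set on average stood for each gene. Intensities of different probe sets cannot be set against each other, so each gene was compared only with itself across the 6 arrays. Differences are log2 values of quantile-normalized intensities, Mest-KO minus control, with the standard error (SE) and 95% confidence interval of limma's fit, and the arrays per group number 3 throughout. The fit tested the 12462 genes brighter than the 40th percentile of all probe sets, an intensity of 34.4, which took in 33 collagen genes with 52 of their probe sets. The 9 dimmer collagen genes (Col24a1, Col10a1, Col4a3, Col4a4, Col6a3, Col6a4, Col6a5, Col8a1 and Col17a1) are given by their values without a test.

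Every array had a trimmed mean of 500, and the median intensity lay between 66.8 and 91.0 in Mest-KO and between 62.1 and 71.0 in control, with the highest on Mest-KO 3. Tbx1 had 909.5, 704 and 713 on the Mest-KO arrays, against 898, 690.2 and 766 on the control arrays, a log2 difference of -0.03 (SE 0.15). Its deletion was directed at mesoderm, and no source used here places its probe set inside or outside the deleted part, so the value is no check of the labels. Xist read 16.1 on Mest-KO 1 and the Y-linked Eif2s3y read 12.1 on control 2, so the Mest-KO 1 pool gave no female signal and the control 2 pool no male signal, whereas the other 4 pools gave both. Of the markers of otic epithelium, all 11 measured were above the filter, and their summed intensity was between 51374 and 56394 in Mest-KO and between 56275 and 61383 in control. Markers of mesenchyme, the tissue around the vesicle, were also present, with 11 of 14 above the filter and none at 0. Their summed intensity was 1864, 4408 and 2972 on Mest-KO arrays 1 to 3, against 2819, 2086 and 1387 on control arrays 1 to 3.

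No collagen gene differed between the groups at an adjusted p under 0.05. Limma called 0 of 33 at that threshold (0.00% of all genes tested), 0 of 33 with a variance trend (0.104% of all genes), and 0 of 52 probe sets (0.00% of all probe sets). The smallest adjusted p of a collagen gene was 0.909. At an unadjusted p under 0.05 there were 4 collagen genes, which is 12.1% of them against 5.14% of all genes tested. Col11a1, Col11a2 and Col6a1 were the 3 with lower values in Mest-KO, where 2.91% of all genes were lower, and Col15a1 was the 1 with higher values, where 2.23% were higher. Col15a1 and Col16a1, however, were above the filter only through their Mest-KO values, with geometric means of 45.2 and 47.3 in Mest-KO and 29.5 and 26.5 in control, so nothing is read from their tests. Among the other 31 genes the number was 3, all lower in Mest-KO. With the trend the number was 3, or 9.09% of the collagen genes against 6.10% of all genes, but the genes were not the same. They were Col6a1 and Col11a1, lower in Mest-KO, and Col9a2, higher in Mest-KO. Over the probe sets the number was 3 of 52, or 5.77% against 3.98% of all probe sets, from Col11a2, Col6a1 and Col15a1. Col6a1 alone was under 0.05 in all 3 fits.

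The normalized values of the groups did not overlap for 6 of 33 collagen genes, 18.2% of them against 10.6% of all genes, and for 6 of 52 collagen probe sets, 11.5% against 9.37% of all probe sets. Col9a1, Col9a2 and Col15a1 were higher in every Mest-KO array than in any control array, and Col11a1, Col11a2 and Col6a1 were lower. Without Col15a1 and Col16a1 this was 5 of 31 genes. In the intensities as deposited, Col9a1 and Col11a2 overlapped and the other 4 did not. Over the 33 genes the differences were above 0 for 19 and below 0 for 14, with a median of 0.04 beside a median of -0.0033 over all genes. The median was 0.25 for the 7 fibrillar genes tested, 0.03 for the 6 cartilage genes, -0.04 for the 6 basement membrane genes and 0.02 for the 14 others.

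**Figure D1:**
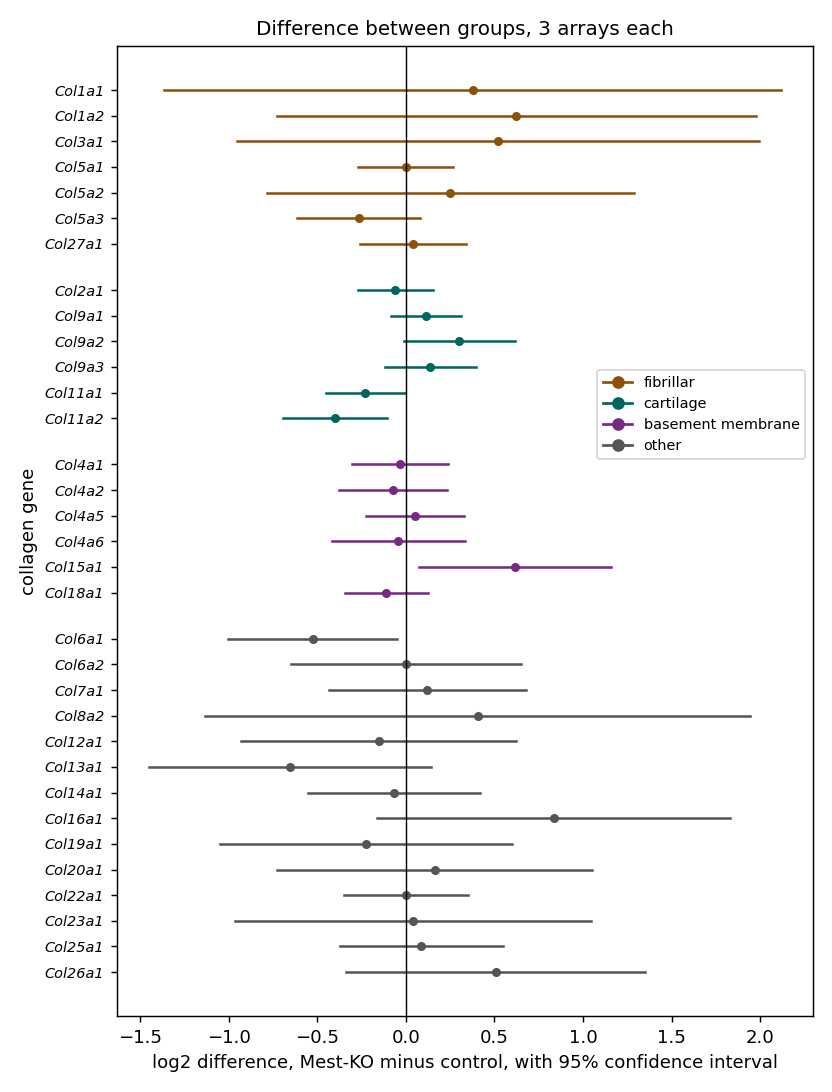
Log2 difference between the groups (Mest-KO minus control, horizontal axis) for the 33 collagen genes tested, with 95% confidence intervals from limma's fit over 3 arrays per group and colours for the collagen class. The intervals of Col11a1, Col11a2, Col15a1 and Col6a1 leave out 0 before adjustment, Col15a1 and Col16a1 passed the filter only through Mest-KO, and those of Col1a1, Col1a2, Col3a1 and Col8a2 are wide.

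Many collagen genes varied widely over the 6 arrays, a spread that takes in any difference between the groups. The range over the 6 arrays was at least 1 log2 unit, that is 2-fold, for 14 of 33 collagen genes (42.4%), compared with 1587 of all 12462 genes (12.7%). That comparison is not matched for intensity. Among genes within 0.5 log2 units of the same mean, a range as large was held by 57.9% for Col15a1, 41.0% for Col12a1, 37.8% for Col20a1 and 35.7% for Col23a1. The shares were 28.8% for Col13a1, 25.7% for Col16a1, 16.8% for Col19a1, 6.46% for Col8a2, 2.00% for Col6a1 and 0.843% for Col26a1. The median range was 0.811 for the collagens and 0.422 for all genes, and by class it was 1.69 for fibrillar, 1.22 for other, 0.372 for cartilage and 0.360 for basement membrane collagens. By this median the fibrillar genes were the most uneven class and the cartilage and basement membrane genes the most even ones. The class medians are not matched for intensity either. Among genes of like mean, the share with a range as large ran from 0.139% (Col3a1) to 80.3% (Col5a1) for fibrillar genes. It ran from 9.11% (Col9a2) to 74.5% (Col11a2) for cartilage genes and from 23.0% (Col4a2) to 77.9% (Col4a6) for basement membrane genes.

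**Figure D2:**
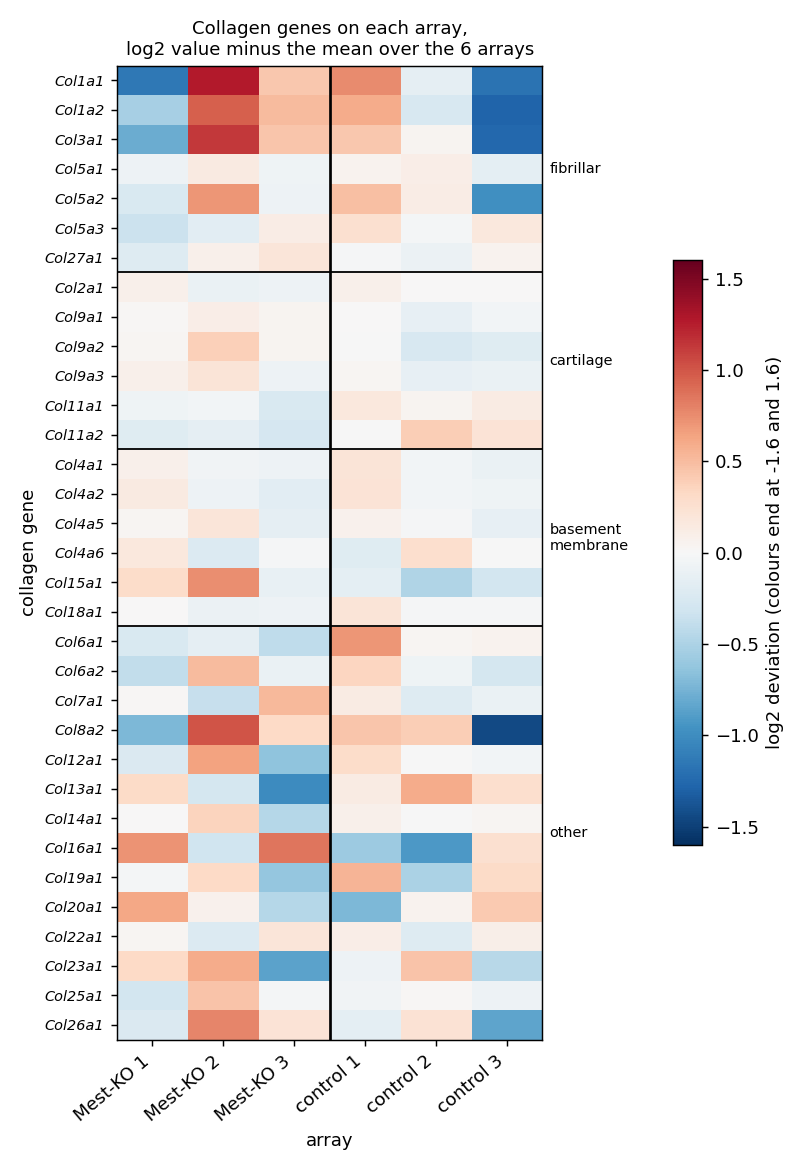
Log2 value of each of the 33 collagen genes tested on each array minus its mean over the 6 arrays, as colour, with Mest-KO arrays left of the line and control arrays right of it. Col1a1, Col1a2, Col3a1, Col5a2 and Col8a2 are high on Mest-KO 2 and low on control 3, while the colours of most cartilage and basement membrane genes stay pale.

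Col1a1 and Col1a2 encode the chains that join as type I collagen, the main fibril protein of bone, skin and tendon. Col1a1 had intensities of 199.7, 1052 and 593 on the Mest-KO arrays, against 757, 383 and 193 on the control arrays. Each group thus held both high and low arrays, and the highest was 5.44 times the lowest. The mean was 615 ± 427 in Mest-KO and 444 ± 287 in control (SD, n = 3 each), and the log2 difference of 0.38 (SE 0.72) had an interval from -1.36 to 2.12 (limma adjusted p = 0.949). Col1a2 had 196, 551 and 409.6 on the Mest-KO arrays, against 439, 223 and 117 on the control arrays, and its arrays stood in the same order as those of Col1a1. Its difference was 0.62 (SE 0.56, interval -0.73 to 1.98, limma adjusted p = 0.909).

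Col3a1 encodes the single chain of type III collagen, which accompanies type I in soft tissues. Its intensities were 371, 1391 and 860 on the Mest-KO arrays, against 873, 650 and 265 on the control arrays, a spread of 5.25 times in which the groups overlapped. The mean was 874 ± 510 in Mest-KO and 596 ± 307 in control (SD, n = 3 each), with a difference of 0.52 (SE 0.609, interval -0.953 to 1.99, limma adjusted p = 0.919). Type V chains help to start type I fibrils. Col5a2 followed the same arrays, with 198, 382 and 233 in Mest-KO, against 333, 241 and 118 in control (difference 0.25, SE 0.428). The brightest probe set of its partner chain Col5a1 was more even, with 413, 473 and 417 in Mest-KO, against 453, 448 and 381 in control, and a difference of -0.0017 (SE 0.111, interval -0.27 to 0.267). The probe sets of Col5a1 disagreed, since another had 159, 225 and 193 in Mest-KO, against 154, 170.3 and 107 in control (difference 0.37), with a range of 1.07 log2 units, and the third differed by -0.22. All 3 were highest on Mest-KO 2. Col5a3 had 133, 151 and 199 in Mest-KO, against 207, 155 and 191 in control (difference -0.27, SE 0.143, limma adjusted p = 0.909). The groups overlapped for all 3 type V chains. The remaining fibrillar chain tested, Col27a1, differed by 0.04 (SE 0.124).

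**Figure D3:**
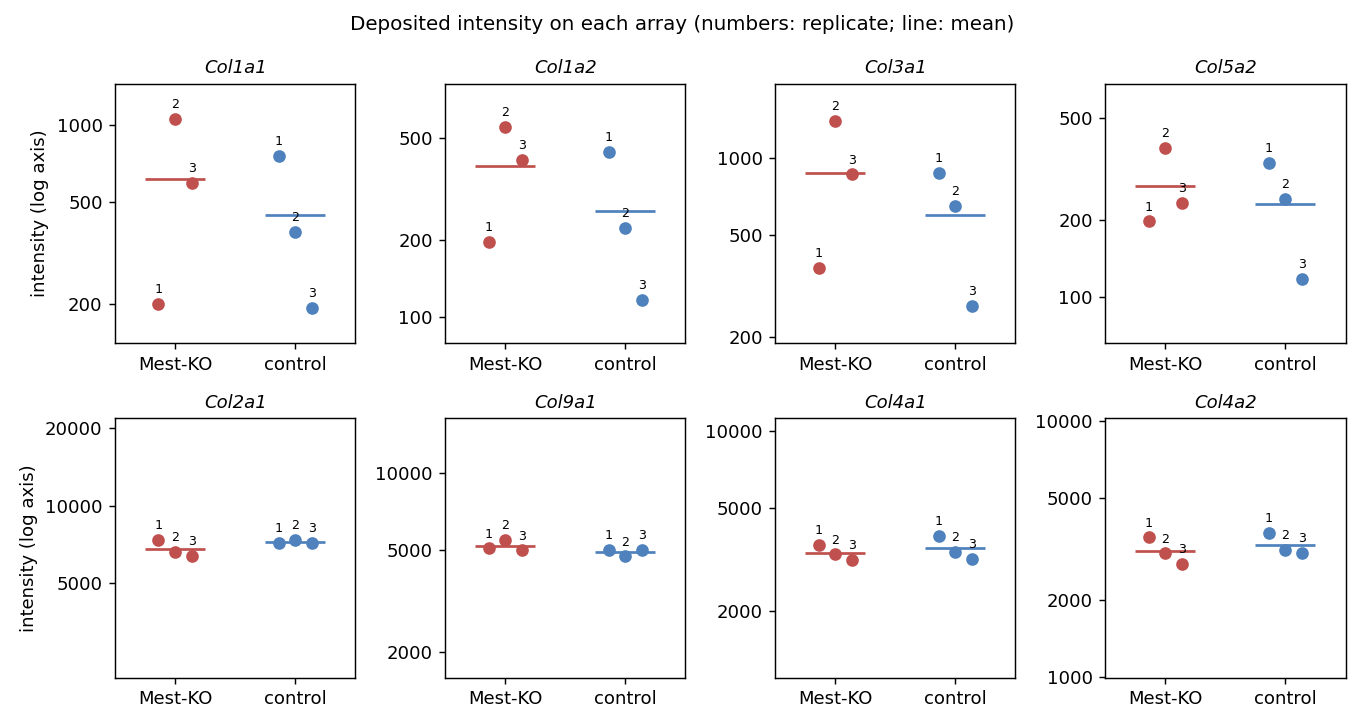
Deposited intensity on each array (logarithmic vertical axis, spanning the same number of log units in every panel) for 4 fibrillar chains above and 4 chains of cartilage and basement membrane below, with the replicate number beside each point and a line at the group mean. Col1a1 spans 193 to 1052 over the 6 arrays and Col2a1 spans 6345 to 7351.

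The large ranges of Col1a1, Col1a2, Col3a1 and Col5a2 were uncommon at their intensities. Of the 1973 genes within 0.5 log2 units of the mean of Col1a1, 0.304% had a range as large, and the shares were 0.481% of 1662 genes for Col1a2, 0.139% of 2164 genes for Col3a1 and 1.46% of 1578 genes for Col5a2. For the brightest probe set of Col5a1 it was 80.3% of 1943 genes. Second probe sets of the same genes gave differences between the groups of 0.40 for Col1a1, 0.52 for Col1a2 and 0.60 for Col3a1, near those of the first.

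Averaged over the 7 fibrillar genes, the deviation from the 6-array mean was -0.48, 0.59 and 0.22 log2 units on Mest-KO arrays 1 to 3, against 0.36, -0.04 and -0.66 on control arrays 1 to 3. The SD was 0.541 within Mest-KO and 0.516 within control. The mesenchyme markers put the arrays in the same order: Mest-KO 2, control 1, Mest-KO 3, control 2, Mest-KO 1, control 3. Their mean log2 level was 6.74, 8.21 and 7.51 on the Mest-KO arrays, against 7.61, 7.30 and 6.59 on the control arrays. Among them Twist1, a transcription factor gene of cranial mesenchyme, had 228, 720 and 353 in Mest-KO, against 476, 348 and 149.6 in control. Pou3f4, a factor of the mesenchyme around the ear, had 13.6, 132 and 111 in Mest-KO, against 79.4, 81.2 and 64.0 in control. The markers of otic epithelium did not follow that order, with means of 11.78, 11.53 and 11.73 in Mest-KO, against 11.77, 11.86 and 11.80 in control. The 3 endothelial markers above the filter averaged 5.860, 6.612 and 6.212 in Mest-KO, against 6.215, 6.150 and 5.17 in control. This is the same order as that of the fibrillar genes and the mesenchyme markers, with control 1 and Mest-KO 3 nearly equal. Among the endothelial markers, Emcn passed the filter only through its Mest-KO values, and Pecam1, Cdh5 and Kdr were below the filter. In tissue RNA, fewer cells of a type and less RNA per cell cannot be told apart, and the part of any other cell type in the fibrillar values was not tested.

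**Figure D4:**
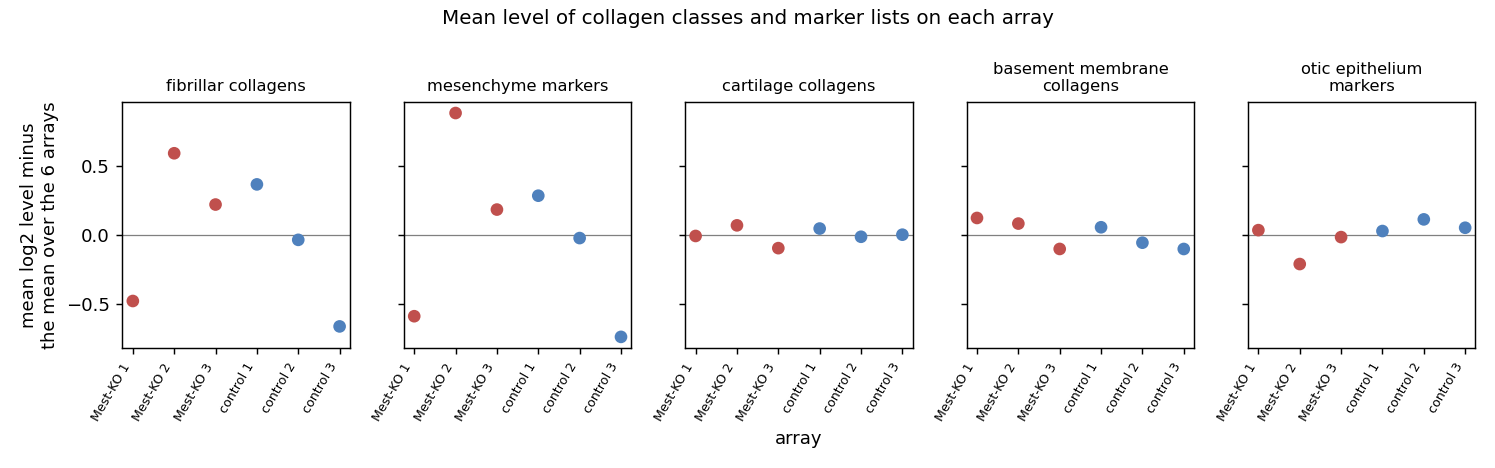
Mean log2 level per array, as the deviation from the 6-array mean, for 3 collagen classes and for the markers of mesenchyme and otic epithelium, with Mest-KO arrays in red on the left and control arrays in blue on the right. Fibrillar collagens run from -0.66 on control 3 to 0.59 on Mest-KO 2 and the mesenchyme markers take the arrays in the same order, while the cartilage and basement membrane classes stay between -0.10 and 0.12.

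The pattern of the fibrillar genes was then counted over all genes, by a rule chosen after their values were seen: highest on Mest-KO 2 and lowest on Mest-KO 1 or control 3. It held for 9 of 33 collagen genes (27.3%) and for 1185 of all 12462 (9.51%). These were Col1a1, Col1a2, Col3a1, Col5a1, Col5a2, Col6a2, Col8a2, Col25a1 and Col26a1. The fibrillar genes that gave the rule are among the 9, so their part in the count was fixed in advance. The 27.3% is therefore no test against the 9.51%. The pattern also held for 10 of the 11 mesenchyme markers and for none of the 11 markers of otic epithelium. Where only the 4 pools with RNA of both sexes were set against each other, Mest-KO 2 and 3 against control 1 and 3, the differences were 1.06 for Col1a1, 1.07 for Col1a2, 1.20 for Col3a1 and 0.56 for Col5a2. The other fibrillar genes differed by 0.09 (Col5a1), 0.12 (Col27a1) and -0.24 (Col5a3). For the first 4 genes, this split left out the lowest Mest-KO array, Mest-KO 1, and kept control 3, the lowest of all. Among the 4 pools control 1 still lay above Mest-KO 3 for Col1a1, Col1a2 and Col5a2, and for Col3a1 in the deposited intensities only. No collagen gene passed the test there.

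Col2a1, which encodes the chain of type II collagen, was the most even collagen gene. It had 7337, 6598 and 6345 on the Mest-KO arrays, against 7170.2, 7351 and 7134 on the control arrays, so that the groups overlapped and the highest was 1.16 times the lowest. Its difference was -0.06 (SE 0.088), with an interval from -0.272 to 0.153. Sox9, the transcription factor that drives Col2a1 in cartilage, differed by 0.07 (SE 0.109).

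Type IX chains sit on the surface of type II fibrils. Col9a2 had 846, 1052 and 838 on the Mest-KO arrays, against 826, 675 and 703 on the control arrays, and every Mest-KO value lay above every control value. The means were 912 ± 121 in Mest-KO and 734 ± 80.2 in control (SD, n = 3 each), with a difference of 0.30 (SE 0.129, interval -0.01 to 0.614, limma adjusted p = 0.909). Col9a1 had 5067, 5482 and 4973 in Mest-KO, against 5009.7, 4710.0 and 5005 in control. Its groups were apart only after normalization, with a difference of 0.11 (SE 0.0823). Col9a3 had 3003, 3297 and 2646 in Mest-KO, against 2869, 2616 and 2636 in control, with overlapping groups and a difference of 0.14 (SE 0.106). All 3 type IX chains were highest on Mest-KO 2 and lowest on control 2.

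Type XI chains lie inside the thin fibrils and limit their width. Col11a1 had 1215, 1212 and 1054 on the Mest-KO arrays, against 1409, 1289.7 and 1373 on the control arrays, so that all Mest-KO values were below all control values. The means were 1160.0 ± 92.2 in Mest-KO and 1357 ± 61.2 in control (SD, n = 3 each). The difference of -0.23 (SE 0.0921) had an interval from -0.451 to -0.00561 (limma adjusted p = 0.909). It stayed between -0.27 and -0.17 when single arrays were left out. A second probe set of Col11a1 gave -0.16 (SE 0.137), with groups that overlapped. Col11a2 was much dimmer, with 74.3, 79.8 and 93.9 in Mest-KO, against 88.3, 105 and 103 in control. Its deposited intensities overlapped, and its normalized values did not. The difference was -0.40 (SE 0.121, interval -0.692 to -0.108, limma adjusted p = 0.909), and -0.26 on the deposited scaling. The differences of both type XI chains were negative under quantile, median and deposited scaling, while those of the type IX chains were positive except for Col9a1 (-0.07) and Col9a3 (-0.0148) under median centring, which moves the median of all genes to -0.14. None passed the adjusted threshold. Col10a1, a marker of mature cartilage cells, read between 3.36 and 19.2 in Mest-KO and between 4.79 and 15.5 in control, below the filter.

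Col4a1 and Col4a2 form the main network chain pair of basement membranes. Col4a1 had 3601, 3306 and 3152 on the Mest-KO arrays, against 3894, 3394 and 3184 on the control arrays. Col4a2 had 3506, 3038 and 2774 on the Mest-KO arrays, against 3664, 3146 and 3058 on the control arrays. For these brightest probe sets, the order of the arrays within both groups was the same for the 2 chains. The log2 ratio of Col4a1 to Col4a2 moved by 0.146 over the 6 arrays, less than the 0.310 and 0.384 of each chain alone. Their differences were -0.03 (SE 0.112) and -0.07 (SE 0.126). A second probe set of Col4a1 had 1680, 1690 and 1408 in Mest-KO, against 1751, 1307.5 and 1290 in control, in another order within Mest-KO. It differed by 0.14 (SE 0.154), the opposite sign. With it the ratio to Col4a2 moved more than Col4a2 alone, so a ratio steadier than both chains was seen only for the brightest probe sets. The starts of Col4a1 and Col4a2 lie 21 bases apart, and a link of this to their values was not tested. Between brightest probe sets, the ratio also moved less than either chain alone for Col9a1 to Col9a3 (0.216), Col9a2 to Col9a3 (0.291), Col1a1 to Col1a2 (0.916) and Col3a1 to Col5a2 (1.08). It did not for Col9a1 to Col9a2 (0.416), Col11a1 to Col11a2 (0.528) and Col6a1 to Col6a2 (1.003).

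Col4a5 and Col4a6 are a pair of type IV chain genes on the X chromosome whose starts lie 1343 bases apart. The ratio of their brightest probe sets moved by 0.695, more than either chain alone. Col4a5 had 1417, 1569 and 1221 in Mest-KO, against 1441, 1352 and 1249 in control (difference 0.05, SE 0.114). Col4a6 had 169.6, 131 and 168 in Mest-KO, against 133, 169.6 and 151 in control (difference -0.04, SE 0.156). For Col4a5 the highest array was Mest-KO 2, which was the lowest for Col4a6, and the groups overlapped for both. Col4a3 and Col4a4, known from the adult kidney filter and the cochlea, were below the filter, with 24.3, 19.7 and 7.76 in Mest-KO, against 25.1, 22.6 and 20.0 in control for Col4a3. Col4a4 had 24.9, 17.2 and 64.6 in Mest-KO, against 31.9, 21.3 and 20.6 in control. Its high value on Mest-KO 3 has to be read with a property of that array: it was the highest for 46.9% of all probe sets below the filter and for 19 of the 30 dim collagen probe sets, or 12 of 30 after normalization.

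Col18a1, whose C-terminal fragment is endostatin, had 3278, 3089 and 3018 on the Mest-KO arrays, against 3714, 3266 and 3242 on the control arrays, with a difference of -0.11 (SE 0.0964). Its relative Col15a1, which links basement membranes to the stroma in vessels and muscle, had 40.02, 59.4 and 50.7 in Mest-KO, against 33.5, 23.1 and 27.5 in control. All Mest-KO values of Col15a1 exceeded all control values, with means of 50.04 ± 9.69 in Mest-KO and 28.1 ± 5.23 in control (SD, n = 3 each). The difference was 0.62 (SE 0.224), given without a test because every control intensity was below the filter of 34.4. The endothelial marker means given above overlapped between the groups. Pecam1, an endothelial adhesion gene below the filter, was higher on every Mest-KO array, with 28.3, 20.2 and 34.8 in Mest-KO, against 6.59, 8.52 and 11.2 in control, while Cdh5, Kdr, Tie1, Esam and Cldn5 overlapped. The part of endothelium in the values of Col15a1 was not tested.

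Among the other collagens, type VI forms beaded microfilaments around cells. Col6a1 had 437, 460 and 395 on the Mest-KO arrays, against 842, 507 and 522 on the control arrays. All Mest-KO arrays were below all control arrays, with means of 431 ± 33.3 in Mest-KO and 624 ± 189 in control (SD, n = 3 each). The difference was -0.53 (SE 0.197, interval -1.004 to -0.0493, limma adjusted p = 0.909). With the variance trend the adjusted p was 0.625. Control 1 carried much of it, since the difference was -0.31 without that array. Its partner chains did not show this: Col6a2 had 119, 229 and 165 in Mest-KO, against 207, 141 and 131 in control (difference 0.0004, SE 0.268). Col6a3, below the filter, had 26.1, 73.0 and 67.6 in Mest-KO, against 56.3, 17.7 and 0.76 in control.

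Col8a2, a short-chain collagen of the cornea, was with Col1a1 the most uneven gene tested in the family. It had 27.6, 104 and 84.8 in Mest-KO, against 70.2, 59.1 and 17.3 in control, a spread of 5.98 times in which the groups overlapped (difference 0.41, SE 0.636). Col26a1 had 352, 706 and 481 in Mest-KO, against 377, 468 and 226 in control (difference 0.51, SE 0.349, limma adjusted p = 0.909). Col25a1, a transmembrane collagen needed by motor nerves to enter muscle, had 484, 802 and 570.4 in Mest-KO, against 570.3, 578 and 544 in control. All of these had their highest value on Mest-KO 2.

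Col13a1, a transmembrane collagen of the neuromuscular junction, had 51.3, 34.9 and 35.9 in Mest-KO, against 50.3, 59.6 and 53.6 in control (difference -0.66, SE 0.329, limma adjusted p = 0.909). Col16a1, a fibril-associated collagen, had 53.1, 25.2 and 84.1 in Mest-KO, against 24.8, 16.7 and 40.3 in control. Its difference of 0.83 (SE 0.413) is given without a test, for the reason above. Both pairs of groups overlapped. The differences of Col7a1, Col12a1, Col14a1, Col19a1, Col20a1, Col22a1 and Col23a1 lay between -0.23 and 0.16, and each interval held 0. Of the dim genes, Col6a4, Col6a5, Col8a1 and Col17a1 read at most 49.1 on any array, with overlapping groups, and Col24a1 had 21.7, 32.9 and 26.6 in Mest-KO, against 19.8, 7.32 and 9.50 in control. The groups of Col24a1 were apart in these intensities and overlapped after normalization.

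The 17 collagen genes with more than 1 probe set above the filter had 19 further probe sets, of which 13 had a difference of the same sign as the one used and 6 the opposite sign. The gap between them had a median of 0.13 log2 units and reached 0.37. Col5a2 was among those with opposite signs, at 0.25 and -0.07.

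None of the genes that make, bind or break down collagen passed the adjusted threshold. Of 24 genes of collagen processing tested, 12 had a difference above 0 and 12 below. Pcolce2, an enhancer of procollagen cleavage, had the smallest p of them (difference -0.35, SE 0.105, limma adjusted p = 0.909). Serpinh1, the collagen chaperone of the endoplasmic reticulum, differed by 0.01 (SE 0.0859). Lox, which cross-links fibrils, was below the filter. The array pattern described above for the fibrillar genes held for 2 of the 24, beside 9.51% of all genes. It also held for 4 of 11 basement membrane partners (Lama1, Lama4, Nid1 and Nid2) and 3 of 9 fibril proteoglycans (Bgn, Fmod and Postn). Of 5 collagen receptors it held for 1, and it held for none of the degradation, other cartilage and otic matrix genes.

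Of 11 basement membrane partners 8 were above 0, with a median of 0.08, and Nid2, which links laminin to type IV collagen, differed by 0.32 (SE 0.149). Of 5 collagen receptors 4 were above 0, with a median of 0.14, and the integrin chain Itgb1 differed by -0.20 (SE 0.0858). Ddr2, a receptor kinase for fibrillar collagen named here after its values were seen, had 57.2, 282 and 144 in Mest-KO, against 138, 114 and 48.6 in control, again highest on Mest-KO 2 and lowest on control 3. Degradation genes were 3 above and 3 below 0, and Mmp2, a gelatinase, differed by -0.22 (SE 0.217).

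Of 9 fibril proteoglycans 6 were above 0. Lum, whose product lumican binds collagen fibrils, had 1152, 1054 and 991 in Mest-KO, against 1736, 1402 and 1327 in control, so that all Mest-KO arrays were lower (difference -0.48, SE 0.123, limma adjusted p = 0.777). Its highest array was control 1. Of 7 other cartilage genes 5 were above 0, and Cnmd, the chondromodulin gene, differed by -0.14 (SE 0.0947). Of 5 genes of the tectorial and otic matrix 2 were above 0; Otog (otogelin) differed by 0.36 (SE 0.176) and Tecta by 0.08 (SE 0.182).

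The marker lists gave the following smallest p values for other cell types. Snai2, a mesenchyme factor, differed by 0.56 (SE 0.124, limma adjusted p = 0.659), and Gata3, a factor of the otic epithelium, by -1.02 (SE 0.107, adjusted p = 0.0969, or 0.000972 with the variance trend). Epcam, an epithelial adhesion gene, differed by -0.11 (SE 0.114). Flt1 of endothelium differed by 0.69, Klf1 of erythroid cells by -0.34, Fcer1g of leukocytes by -0.86, Erbb3 of neural crest and glia by 0.04, Neurod1 of neurons by 0.57 and Tnnt1 of muscle by 0.18, none of them with an adjusted p under 0.05. Differences were above 0 for 9 of 11 mesenchyme, 3 of 11 otic epithelium, 3 of 3 endothelial, 2 of 5 erythroid, 0 of 2 leukocyte, 2 of 3 neural crest and glia, 3 of 7 neuron and 2 of 2 muscle genes. Of the endothelial genes, Emcn passed the filter only through its Mest-KO values, so nothing is read from its sign. The median was -0.01 for the neuron list, so Neurod1 does not stand for it. Leukocyte and muscle lists rested on 2 of 6 genes above the filter each, the neural crest and glia list on 3, the erythroid list on 5 and the neuron list on 7.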

How the data were processed

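The intensities deposited by the authors are linear probe set values with an equal trimmed mean of 500 on all arrays. Affymetrix Expression Console 1.1 was used, per the submitters' processing notes. No source used here gives the probe summary or background correction, and no detection calls were used. Per the labels' protocols, 300 ng of total RNA went into each cRNA.

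Of 45101 probe sets, 64 controls were left out. Values were floored at 1, put on the log2 scale and quantile normalized. Genes took their brightest probe set with 1 symbol, and dim genes were dropped as described. The test was limma 3.58.1 (R 4.3.3; lmFit and eBayes, no covariate) and Benjamini-Hochberg adjustment over 12462 genes, after the steps were tested on simulated data. Figures used matplotlib 3.10.9 in Python 3.11.15. The labels call the arrays biological replicates, and p-values measure the spread between these pools.

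Members and lists were chosen with earlier results of these data known. Any collagen could be named. Of the lists of collagen processing, basement membrane partners, receptors, degradation, proteoglycans, cartilage, otic matrix and cell type markers, the gene with the smallest p and a few set genes were named. Alternatives were other filters, scalings, probe set rules, floors, variance models, a replicate block and leaving out arrays.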

Additional observations from a re-analysis of the deposited data

How the results depend on the processing

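No collagen gene and no collagen probe set passed an adjusted p of 0.05 in limma under any of the 20 alternatives, including the replicate number as a block and each array left out. Over all genes the count, 0 as reported, was 7 with a filter at the 60th percentile, 25 with median centring, 13 with a variance trend, 16 when that trend was fitted robustly, 7 at an adjusted p of 0.10 and 1 with the most variable probe set. The median difference of the collagen genes, 0.04, was -0.0804 with median centring, which moved the median of all genes to -0.14. It ranged from -0.0745 to 0.1214 when single arrays were left out, with the lowest value without control replicate 3.

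Of the 33 genes, 12 kept their sign in every alternative that gave them a value: Col2a1, Col11a1, Col11a2, Col18a1, Col6a1 and Col13a1 below 0, and Col1a2, Col3a1, Col9a2, Col15a1, Col16a1 and Col26a1 above 0, of which Col15a1 and Col16a1 passed the filter only through Mest-KO. Leaving out single arrays moved Col1a1 between -0.16 and 1.04 and Col3a1 between 0.02 and 1.05. Arrays of the same replicate number did not deviate together (r = -0.11, -0.01 and -0.01), so the block, with 0 genes past the threshold and a collagen median of 0.04, pairs arrays by number only. With 3 pools per group, the interval of Col1a1 spans more than 2-fold in either direction, and intensities near the filter are the least reliable.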
